A study of Mus musculus with 8 samples.

Results

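The genes described here are 32 mouse genes reported to be raised in haematopoietic stem cells of old animals, measured in stem cells of young adult mice. The list was taken by name, and members were selected on the counts themselves, a gene being kept where at least 10 fragments were counted in at least 4 of the 8 libraries, which held for 25 of the 32. By the same minimum 14086 of the 53715 genes counted were kept. The minimum reads the same counts that are compared between genotypes. The genes were also named with earlier results of these data known. Each of the 25 had at least 10 counts in at least 2 libraries of each genotype. Klrb1c and Tm4sf1 met the minimum through their 4 wild-type libraries, with only 2 and 3 heterozygote-labelled libraries at 10 counts. Mt2 met it through its 4 heterozygote-labelled libraries, with only 2 wild-type ones. Their place among the 25 thus rested on the genotype where they are higher. Just inside the minimum stood Dsg2, with 5 libraries of at least 10 counts, and Mt2 and Klrb1c, with 6. Just outside it were Rorb and Zswim5, with 2 each.

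Total RNA was sequenced from bone marrow cells sorted as LSK CD48- CD150+ cells, where LSK stands for lack of lineage markers with Sca-1 and Kit on the surface. 4 libraries came from mice labelled Gata2; Mx1-Cre Heterozygote and 4 from mice labelled Wild Type, 1 mouse per library. Mx1-Cre is a recombinase transgene under an interferon-responsive promoter, and it acts in blood cells and in other interferon-responsive tissues as well. The mice of both genotypes were 8 to 12 weeks old and had been given 6 doses of pIpC, a double-stranded RNA mimic that induces interferon, so there was neither an untreated group nor an old one. The labels name Mx1-Cre for the heterozygotes and do not say whether Wild Type mice carried it. An effect of the transgene and one of the Gata2 allele cannot be told apart.

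Stem cells of old mice are more numerous, contribute less to lymphoid cells and more to platelets and myeloid cells, and carry a recurrent set of raised transcripts. That set contains metallothioneins and detoxifying enzymes, surface receptors and adhesion molecules, ecto-enzymes, and regulators of membrane composition and traffic. Several of its members are also expressed by endothelial cells, natural killer cells or megakaryocytes.

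Between 16750778 and 22861884 fragments were assigned to genes per library, and levels are given as CPM, counts relative to the TMM-scaled library size, with TPM, which also divides by exon length, where levels of different genes are compared. Gata2 stood at 44.8 ± 12.2 CPM in the heterozygote-labelled and 35.8 ± 7.65 CPM in the wild-type libraries (SD, n = 4 each), a log2 fold change of 0.33 (SE 0.23), so its total count was not lower under the heterozygote label. Counts cover all exons, the deleted part included or not, and directions below follow the labels. All 12 stem cell markers were tested genes, with a summed level of 1056 to 1129 CPM in the heterozygote-labelled and 978 to 1316 CPM in the wild-type libraries. Of 15 natural killer and T cell markers 12 had no count in any library, and Nkg7 made up nearly all of the summed 312 to 510 CPM and 228 to 432 CPM in the same order. Of 11 endothelial markers 7 were tested genes, with a summed level of 129 to 179 CPM in heterozygote-labelled and 174 to 223 CPM in wild-type libraries. That sum came mostly from Egfl7, Emcn, Pecam1 and Esam, which stem cells express too. The cadherin Cdh5 of the same list reached at most 0.852 CPM in heterozygote-labelled and 0.207 CPM in wild-type libraries, and Flt1 had no count. By Xist and Y-linked genes, replicates 1 and 4 of each genotype read as female and replicates 2 and 3 as male.

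No member passed the threshold between the genotypes. Of the 25 tested members 0 reached an adjusted p of 0.05 with edgeR, where 0 of 13992 genes (0%) did. DESeq2 called 0 of the 25, against 29 of 13992 genes (0.207%), and limma-voom called 0. At an unadjusted p under 0.05 by edgeR 1 member was lower in the heterozygote-labelled libraries, Fhl1, where 3.29% of all genes were, and 2 were higher, Clca3a1 and Dsg2, where 2.37% were. The 4 heterozygote-labelled libraries lay entirely below the 4 wild-type ones for 2 members, Klrb1c and Tm4sf1, against 1.82% of all genes, and entirely above them for 0 members, against 1.65%. The log2 fold change, heterozygote label over wild type, was negative in 16 of the 25 (64.0%) and in 52.0% of all genes tested. Its median was -0.17 over the members and -0.018 over all genes. The 95% interval stayed within a 2-fold change in either direction for 9 members, which were Plscr1, Enpp5, Art4, Clec1a, Aldh1a1, Gstm2, Tgm2, Mt1 and Alcam. For the other 16 a change of 2-fold in at least 1 direction lay inside the interval.

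**Figure D1:**
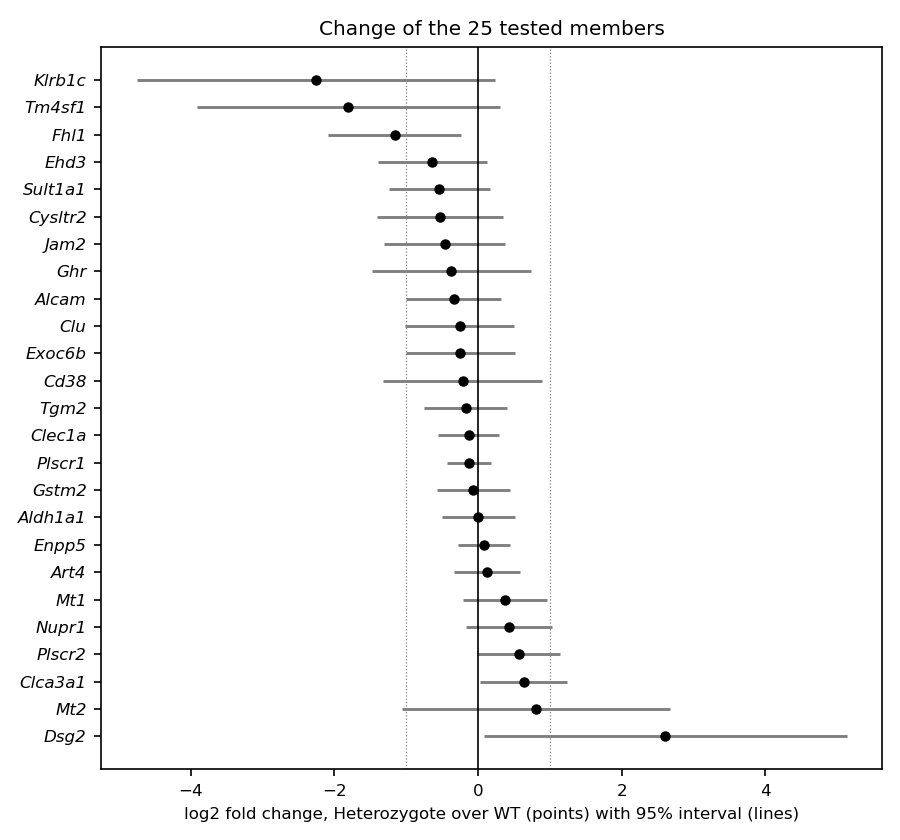
Log2 fold change of the 25 tested members, heterozygote label over wild type, with the 95% interval from the edgeR fit (n = 4 libraries each). Dotted lines mark a 2-fold change. Klrb1c and Tm4sf1 have the lowest estimates with wide intervals, Dsg2 has the highest, and 16 of the 25 estimates are below 0.

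By mean TPM, 16 of the 32 named genes lay above the median of all genes tested, 9 lay below it and 7 were under the count minimum. Among the 25 kept the median member stood at 15.7 TPM. Plscr1 was the highest at 134 TPM, followed by Enpp5 at 104 TPM, Art4 at 97.5 TPM and Mt1 at 66.4 TPM. Each of these overlapped its neighbour in the order across the 8 libraries. Plscr2, Gstm2, Aldh1a1 and Sult1a1 formed the next group, at 39.8, 34.8, 33.4 and 32.3 TPM. At the low end stood Exoc6b at 1.76 TPM, Tm4sf1 at 1.68 TPM and Dsg2 at 0.446 TPM.

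**Figure D2:**
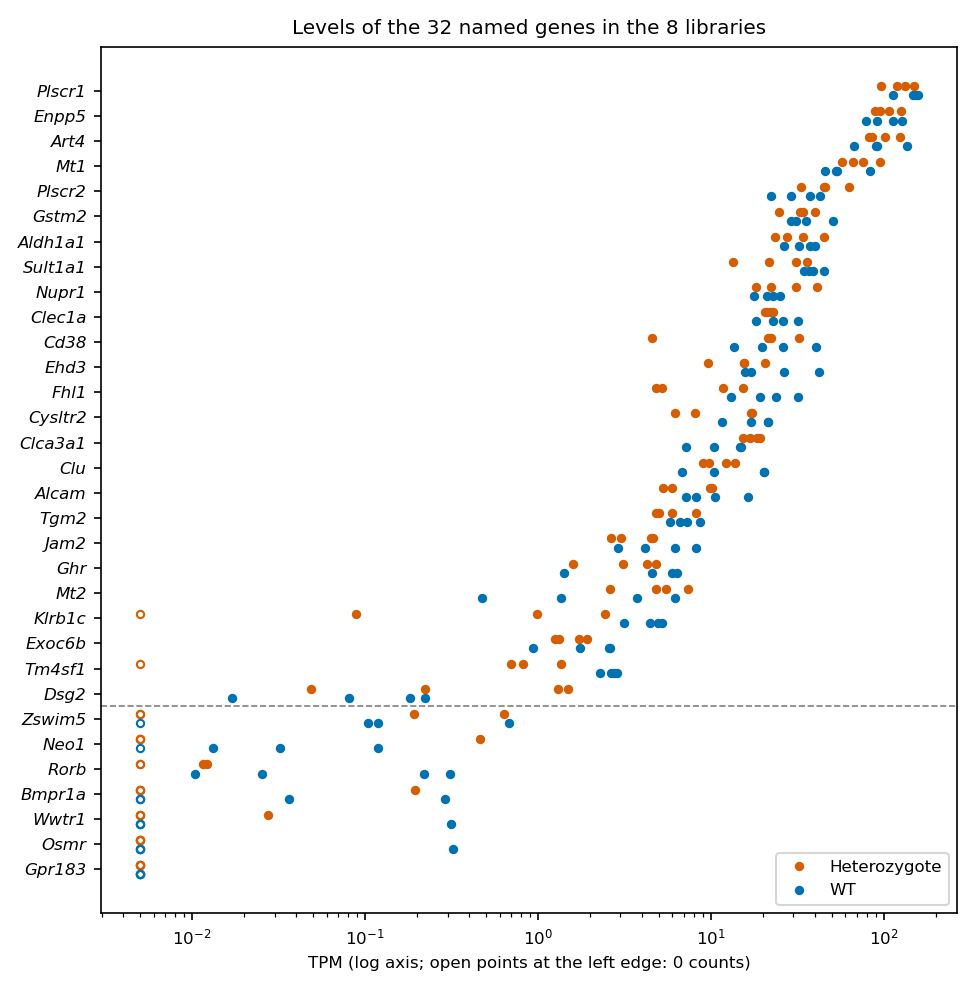
TPM of each of the 32 named genes in each library on a log axis, ordered by mean TPM, with heterozygote-labelled libraries above wild-type libraries in each row. Open points at the left edge are libraries with 0 counts, and the dashed line separates the 25 genes kept from the 7 below the minimum.

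The spread between libraries differed widely among the members. The biological coefficient of variation, the fitted spread between libraries beyond counting noise, had a median of 0.333 over the 25 and of 0.377 over all genes. With 1 mouse per library, differences between mice and those of library preparation cannot be told apart in it. It was 0.159 for Plscr1, 0.177 for Enpp5 and 0.214 for Clec1a, and reached 0.846 for Tm4sf1, 1.02 for Klrb1c and 1.03 for Dsg2. Abundant members such as Plscr1 and Enpp5 had less spread than the scarce ones, and the largest fold changes belong to the scarce ones. Across the members a library's median deviation from the gene means was 0.0996, 0.073, 1.0e-04 and -0.102 (log2) in heterozygote-labelled replicates 1 to 4, against 0.073, 0.198, 0.124 and 0.030 in wild-type replicates 1 to 4. The 2 genotypes overlapped in this measure.

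**Figure D3:**
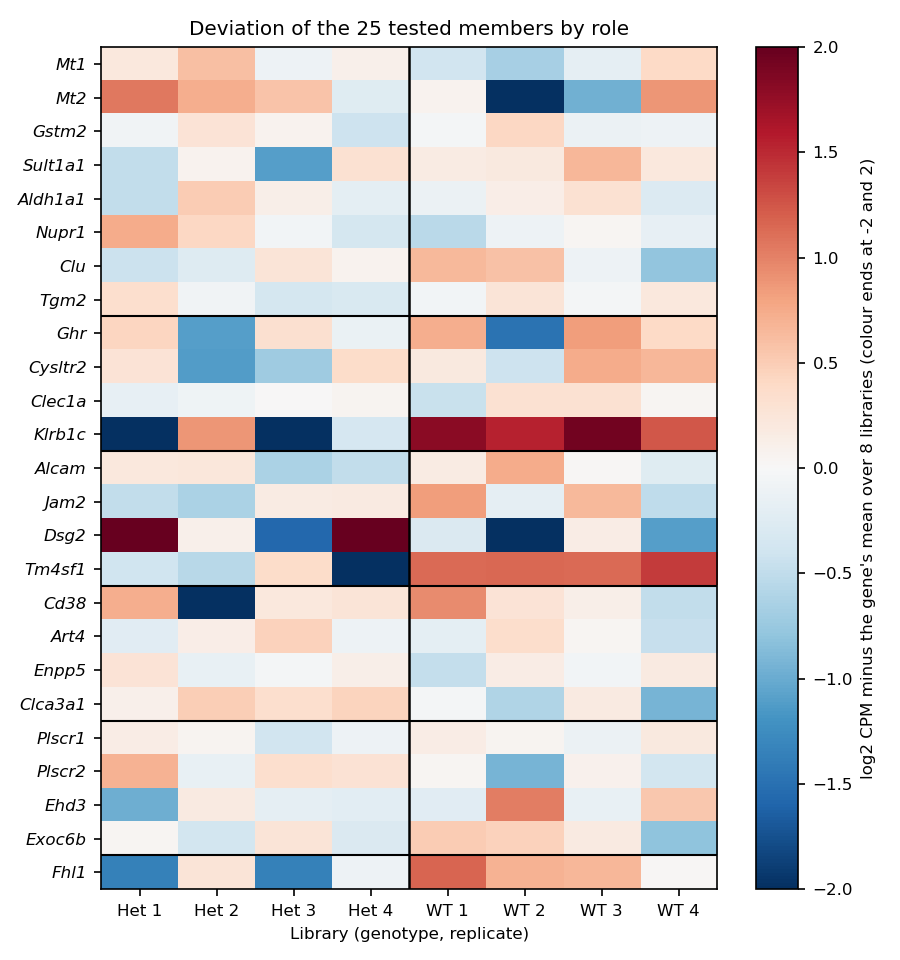
Deviation of log2 CPM from each gene's mean over the 8 libraries for the 25 tested members, heterozygote-labelled libraries (Het) on the left and wild-type libraries on the right. Horizontal lines separate the roles, from metal-binding and detoxifying genes at the top to Fhl1. Klrb1c and Tm4sf1 are lower in every library on the left than in any on the right, and most other rows mix both colours on each side.

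Among regulators of transcription, Fhl1 had the smallest unadjusted p of the list. It encodes a protein of LIM domains that binds other proteins at the cytoskeleton and in the nucleus, and lies on chromosome X, 56731787 to 56793346, plus strand of GRCm38. Fhl1 measured 7.37, 22.6, 7.31 and 17.6 CPM in heterozygote-labelled replicates 1 to 4, against 42.5, 30.7, 29.96 and 19.3 CPM in the wild-type replicates 1 to 4. Heterozygote-labelled replicates 1 and 3 were the lowest of all 8 libraries, and the only overlap was heterozygote-labelled replicate 2 above wild-type replicate 4. The means were 13.7 ± 7.63 CPM in heterozygote-labelled and 30.6 ± 9.46 CPM in wild-type libraries (SD, n = 4 each), a log2 fold change of -1.16 (SE 0.41, adjusted p = 0.850 by edgeR), with an unadjusted p of 0.0191. Exact permutation of the genotype labels gave a two-sided p of 0.0571, the smallest possible value over the 70 assignments being 0.0286. In bulk RNA a lower share of cells that express a gene and less of its transcript per cell cannot be told apart. The other 3 members of this role were below the minimum. Rorb, an orphan nuclear receptor, had 0, 0, 1 and 1 counts in the heterozygote-labelled replicates, against 21, 2, 1 and 31 counts in the wild-type replicates. Wwtr1, the Hippo pathway coactivator TAZ, had 1 count in 1 heterozygote-labelled library, against 13 counts in 1 wild-type library. Zswim5 had 28 counts in heterozygote-labelled replicate 4 and 33 in wild-type replicate 3, and at most 7 in any other library.

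Among receptors, Klrb1c was the member whose genotypes did not overlap. It encodes NK1.1, a lectin-like receptor known from natural killer cells, and lies on chromosome 6, 128778485 to 128789215, minus strand. Klrb1c measured 0.1002, 2.88, 0 and 1.18 CPM in heterozygote-labelled replicates 1 to 4, against 5.54, 4.56, 6.08 and 3.70 CPM in the wild-type replicates 1 to 4. In counts these were 2, 47, 0 and 23 fragments against 134, 94, 127 and 84, so every heterozygote-labelled library was below every wild-type one. The fit gave a log2 fold change of -2.26 (SE 1.12, adjusted p = 0.850 by edgeR), with an interval from -4.75 to 0.23. The exact permutation test gave p = 0.0286, the smallest the design allows. Genotypes without overlap give this p by construction, so it only repeats the lack of overlap, shared by 1.82% of all genes in this direction. The estimate for Klrb1c was -3.74 with limma-voom, -3.48 with replicate number as a block and -3.52 without heterozygote-labelled replicate 2. It was nearer 0 without heterozygote-labelled replicate 3 (-1.85) and without heterozygote-labelled replicate 1 (-1.87). Of the 15 natural killer and T cell markers, Ncr1, Klrd1, Klre1, Gzma and Prf1 were among the 12 without a count in any library. Nkg7 of the same list made up nearly all of its 312 to 510 CPM in heterozygote-labelled and 228 to 432 CPM in wild-type libraries. Which cells gave the Klrb1c counts was not tested. Klrb1a and Klrb1b, neighbours of Klrb1c in the family, had no count. Klrb1f averaged 6.63 ± 4.42 CPM in heterozygote-labelled and 4.22 ± 2.68 CPM in wild-type libraries (SD, n = 4 each). Gata2 and 4 members share chromosome 6, at distances from Gata2 of 3.1 Mb for Exoc6b, 40.6 Mb for Klrb1c, 41.2 Mb for Clec1a and 48.6 Mb for Art4. The log2 fold changes of the other 3 were -0.25, -0.13 and 0.12 for Exoc6b, Clec1a and Art4.

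Cysltr2, a receptor for cysteinyl leukotrienes, measured 18.7, 7.10, 9.44 and 19.9 CPM in heterozygote-labelled replicates 1 to 4, against 17.7, 11.6, 25.8 and 24.4 CPM in the wild-type replicates 1 to 4. Heterozygote-labelled replicates 2 and 3 and wild-type replicate 2 were low, and the groups overlapped, with a log2 fold change of -0.53 (SE 0.39, adjusted p = 0.859 by edgeR). Ghr, the growth hormone receptor, was 5.75 to 16.8 CPM in heterozygote-labelled and 4.42 to 22.4 CPM in wild-type libraries. Replicate 2 of both genotypes held the lowest Ghr level, 5.75 CPM in the heterozygote-labelled and 4.42 CPM in the wild-type library, while the other 6 libraries held at least 11.3 CPM. The log2 fold change of Ghr was -0.37 (SE 0.50). Clec1a, a C-type lectin receptor found on endothelial and dendritic cells, was 40.98 to 47.8 CPM in heterozygote-labelled and 33.8 to 57.1 CPM in wild-type libraries, with a log2 fold change of -0.13 (SE 0.19). All 4 tested receptors had a negative estimate, and the other 4 were below the minimum. Gpr183, an oxysterol receptor of lymphocytes, had 0 counts in all 8 libraries, which allows up to 3 counts, or 0.124 to 0.183 CPM, per library for counting error only. Osmr, a subunit of the oncostatin M receptor, had 34 counts in wild-type replicate 3 and none elsewhere, and its signalling partner Il6st averaged 13.1 ± 2.84 CPM in heterozygote-labelled and 10.2 ± 5.32 CPM in wild-type libraries. Bmpr1a, a type I receptor for bone morphogenetic proteins, had 8 counts in 1 heterozygote-labelled library, against 2 and 16 counts in 2 wild-type libraries. Neo1, neogenin, had 30 counts in heterozygote-labelled replicate 3 alone, against 1, 2 and 9 counts in wild-type replicates 1 to 3.

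Adhesion molecules held the other non-overlapping member, Tm4sf1, and the highest positive estimate, that of Dsg2. Tm4sf1, a small membrane protein of the L6 family known from endothelial cells, lies on chromosome 3, 57285611 to 57301988, minus strand. Tm4sf1 measured 1.30, 1.16, 2.29 and 0 CPM in heterozygote-labelled replicates 1 to 4, against 3.97, 3.98, 3.97 and 4.76 CPM in the wild-type replicates 1 to 4. The wild-type libraries lay between 3.97 and 4.76 CPM, and the 4 heterozygote-labelled libraries were all lower, 1 of them without a count. The fit gave a log2 fold change of -1.81 (SE 0.94, adjusted p = 0.850 by edgeR). The exact permutation p was 0.0286, again the smallest possible and again only a restatement of the lack of overlap. The estimate for Tm4sf1 was -3.24 with limma-voom and -1.39 without heterozygote-labelled replicate 4, the library without a count. Dsg2, the desmosomal cadherin desmoglein 2, measured 4.11, 0.735, 0.164 and 4.96 CPM in heterozygote-labelled replicates 1 to 4, against 0.538, 0.0486, 0.766 and 0.264 CPM in the wild-type replicates 1 to 4. Heterozygote-labelled replicates 1 and 4 were high and the other 2 lay within the wild-type range, so the log2 fold change of 2.61 (SE 1.13, adjusted p = 0.850 by edgeR) was carried by 2 libraries, and the exact permutation p was 0.229. Those 2 libraries read as female, and among libraries that read as female Dsg2 stood at 4.11 and 4.96 CPM under the heterozygote label, against 0.538 and 0.264 CPM in wild type. Among those that read as male it stood at 0.735 and 0.164 CPM under the heterozygote label, against 0.0486 and 0.766 CPM in wild type. With sex as a term in the fit the log2 fold change of Dsg2 was 1.85, and whether the genotype difference itself differed by sex was not tested.

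Jam2, a junctional adhesion molecule, measured 6.81, 6.18, 10.8 and 10.9 CPM in heterozygote-labelled replicates 1 to 4, against 17.3, 8.50, 15.2 and 6.78 CPM in the wild-type replicates 1 to 4. Wild-type replicates 1 and 3 were highest, and the other 2 wild-type libraries lay in the heterozygote-labelled range, with a log2 fold change of -0.46 (SE 0.38). Alcam, the adhesion molecule CD166, measured 27.7, 28.2, 15.4 and 17.04 CPM in heterozygote-labelled replicates 1 to 4, against 26.9, 40.2, 24.4 and 20.2 CPM in the wild-type replicates 1 to 4. Heterozygote-labelled replicates 3 and 4 were the lowest libraries, and the groups overlapped, with a log2 fold change of -0.34 (SE 0.29). Beside these values the endothelial markers had estimates below 0 in 5 of 7 tested genes, with a median log2 fold change of -0.33 and a summed level of 129 to 179 CPM in heterozygote-labelled and 174 to 223 CPM in wild-type libraries, mostly from Egfl7, Emcn, Pecam1 and Esam, which stem cells express too. Megakaryocyte and platelet markers had estimates below 0 in 9 of 10 tested genes, with a median of -0.64 and a sum of 526 to 831 CPM and 727 to 978 CPM in the same order, Mpig6b being at 0 in all libraries. Over all genes tested 52.0% had an estimate below 0, with a median of -0.018. An unadjusted p under 0.05 by edgeR was reached by 0 of the 7 endothelial genes. Of the 10 megakaryocyte and platelet genes 1 reached it, on the lower side, where 3.29% of all genes did. Both marker lists were written with earlier results of these data known. The part of these markers in the values of the members was not tested.

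**Figure D4:**
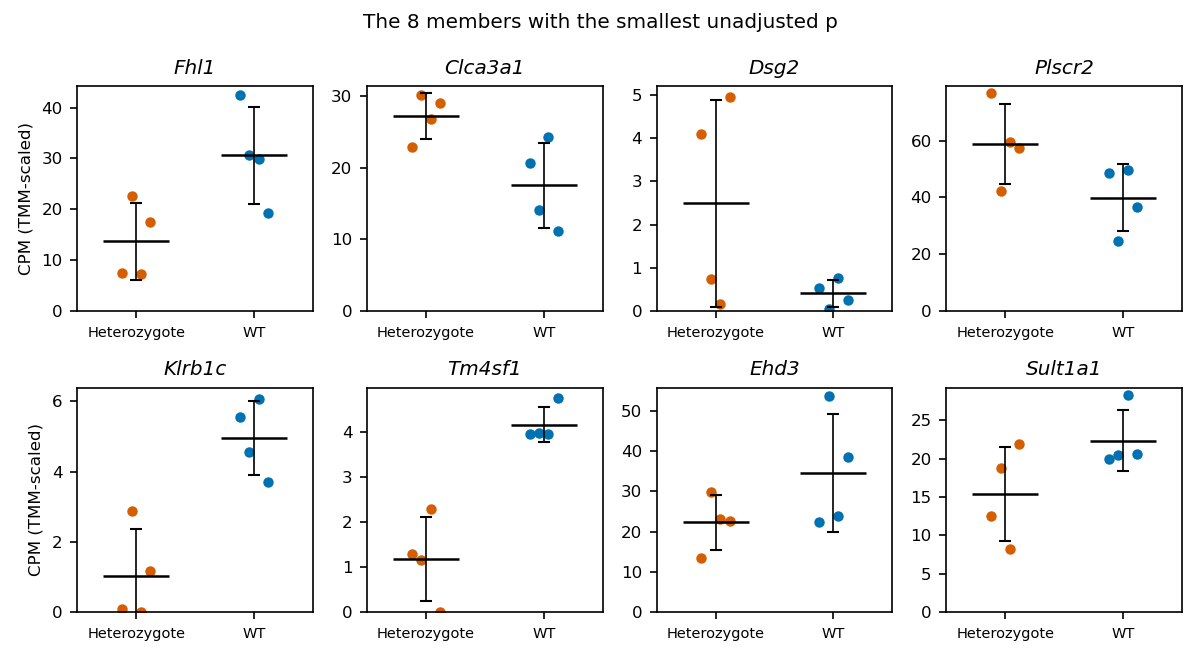
CPM in each library for the 8 members with the smallest unadjusted p, heterozygote label on the left and wild type on the right of each panel. Bars are the mean and SD of 4 libraries, each axis starts at 0, and the groups are apart in Klrb1c and Tm4sf1 and overlap in the other 6.

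Among surface enzymes Clca3a1 stood higher in most heterozygote-labelled libraries. It belongs to the family of calcium-activated chloride channel regulators and lies on chromosome 3, 144729677 to 144760977, minus strand. Clca3a1 measured 22.8, 30.1, 26.8 and 29.1 CPM in heterozygote-labelled replicates 1 to 4, against 20.6, 14.03, 24.2 and 11.1 CPM in the wild-type replicates 1 to 4. Wild-type replicate 3 was the only wild-type library above the lowest heterozygote-labelled one. The means were 27.2 ± 3.22 CPM in heterozygote-labelled and 17.5 ± 5.98 CPM in wild-type libraries (SD, n = 4 each), edgeR gave a log2 fold change of 0.63 (SE 0.27), adjusted p = 0.850, with an unadjusted p of 0.0420, and the exact permutation test gave p = 0.0571. Its close relative Clca3a2 had 1 count over all 8 libraries. The 250 bases before the annotated start of Clca3a1, from RefSeq on GRCm38.p6 at chr3:144760978-144761227 on the minus strand, are shown because the study altered a GATA factor and this window of a leading member holds a GATA word. Capitals mark the GATA word, the search on both strands being for AGATAA and AGATAG, and with another first letter for TGATAA and also TGATAG.
Clca3a1: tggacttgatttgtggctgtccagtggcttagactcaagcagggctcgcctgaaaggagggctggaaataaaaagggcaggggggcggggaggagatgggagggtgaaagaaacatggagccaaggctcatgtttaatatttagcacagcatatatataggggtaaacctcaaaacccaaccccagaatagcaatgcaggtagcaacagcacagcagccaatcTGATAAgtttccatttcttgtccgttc
GATA words occurred in 36.7% of the 30 such windows of member genes, of which 25 of the 32 members had at least 1, and in 26.5% of 32851 windows of all genes. At least 1 window held a GATA word in 10 members, so the word is not particular to Clca3a1. Mt1 is among the 10, and its window below is marked for another motif only. A match is a description of the letters and not a measured site. The windows of Fhl1, Tm4sf1 and Klrb1c held none of these words. Those of Fhl1 (56779433 to 56779682 and 56786277 to 56786526) and Klrb1c (128788642 to 128788891) lay inside the gene ranges given above. Bases outside the windows were not searched.

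Enpp5, of the ecto-nucleotide pyrophosphatase family, measured 233, 173, 188 and 208 CPM in heterozygote-labelled replicates 1 to 4, against 138, 214, 186 and 219 CPM in the wild-type replicates 1 to 4. The groups overlapped throughout, and the log2 fold change was 0.084 (SE 0.16). Art4, which carries the Dombrock blood group, measured 79.1, 102, 128 and 86.8 CPM in heterozygote-labelled replicates 1 to 4, against 81.3, 119, 95.6 and 67.3 CPM in the wild-type replicates 1 to 4, with a log2 fold change of 0.12 (SE 0.21). Heterozygote-labelled replicate 3 was the highest library for Art4, and wild-type replicate 4 the lowest. Cd38, an ecto-enzyme that consumes NAD, was 7.10 to 48.4 CPM in heterozygote-labelled and 20.9 to 56.3 CPM in wild-type libraries. Heterozygote-labelled replicate 2 was the lowest of the 8, at 7.10 CPM, and the log2 fold change of -0.22 (SE 0.50) was 0.11 without that library and 0.089 without wild-type replicate 1. Bst1, a related NAD-consuming enzyme, had no count in any library.

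The metallothioneins overlapped between the genotypes and shared their lowest library. Mt1 and Mt2 encode small metal-binding proteins whose transcription is driven by zinc through the factor MTF1, and they lie side by side on chromosome 8, Mt2 from 94172664 to 94173568 and Mt1 from 94179082 to 94180327. The 250 bases before each RefSeq start on GRCm38.p6 are given, Mt2 at chr8:94172368-94172617 and Mt1 at chr8:94178839-94179088, both on the plus strand, because these are the members that share a regulator. Capitals mark the core of the metal response element (TGCACNC or TGCGCNC, searched on both strands).
Mt2: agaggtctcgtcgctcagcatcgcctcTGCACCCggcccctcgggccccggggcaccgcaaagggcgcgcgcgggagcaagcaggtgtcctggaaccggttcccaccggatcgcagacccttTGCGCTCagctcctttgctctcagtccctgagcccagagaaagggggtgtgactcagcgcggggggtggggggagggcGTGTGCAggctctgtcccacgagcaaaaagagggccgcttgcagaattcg
Mt1: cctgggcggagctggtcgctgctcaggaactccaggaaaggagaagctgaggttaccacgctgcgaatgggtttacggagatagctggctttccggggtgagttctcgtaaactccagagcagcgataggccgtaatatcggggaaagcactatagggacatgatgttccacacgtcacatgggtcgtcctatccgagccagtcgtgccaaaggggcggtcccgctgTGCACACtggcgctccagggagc
Within these windows the core was found 3 times for Mt2 and 1 time for Mt1. The Mt1 window ends at 94179088, past the gene start of 94179082, and the Mt2 window at 94172617, short of 94172664. These numbers depend on the start used, bases outside the windows were not searched, and the 2 promoters cannot be ranked by them. The core occurred in 21.4% of 32851 windows of all genes and in 30.0% of the 30 windows of members.

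Mt1 measured 35.9, 47.6, 29.2 and 33.4 CPM in heterozygote-labelled replicates 1 to 4, against 23.96, 19.7, 27.6 and 41.2 CPM in the wild-type replicates 1 to 4. Mt2 was scarcer per length, with a mean of 4.01 TPM against 66.4 TPM for Mt1, and measured 1.65, 1.28, 1.15 and 0.614 CPM in heterozygote-labelled replicates 1 to 4, against 0.786, 0.0971, 0.335 and 1.45 CPM in the wild-type replicates 1 to 4, from 2 to 33 fragments per library. For both genes wild-type replicate 2 was the lowest library, and wild-type replicate 4 was high in both, so the groups overlapped. The log2 fold changes were 0.38 (SE 0.26, adjusted p = 0.855 by edgeR) for Mt1 and 0.81 (SE 0.84, adjusted p = 0.910 by edgeR) for Mt2. Across the 8 libraries log2 CPM of the pair had a Pearson r of 0.791 (exact permutation p = 0.0175, adjusted p = 0.0350 over 2 pairs) and a Spearman rho of 0.786 (exact permutation p = 0.0279, adjusted p = 0.0559). After removal of the genotype means r was 0.71. Without the 2 libraries farthest from the median of Mt1, replicate 2 of both genotypes, r was 0.589 and rho 0.657 over 6 libraries, with an exact permutation p of 0.224 for r. By Pearson r the relation passed the threshold only with those libraries included, and by Spearman rho it did not pass after adjustment over all 8. Mtf1 averaged 16.2 ± 2.52 CPM in heterozygote-labelled and 20.4 ± 3.45 CPM in wild-type libraries (SD, n = 4 each).

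**Figure D5:**
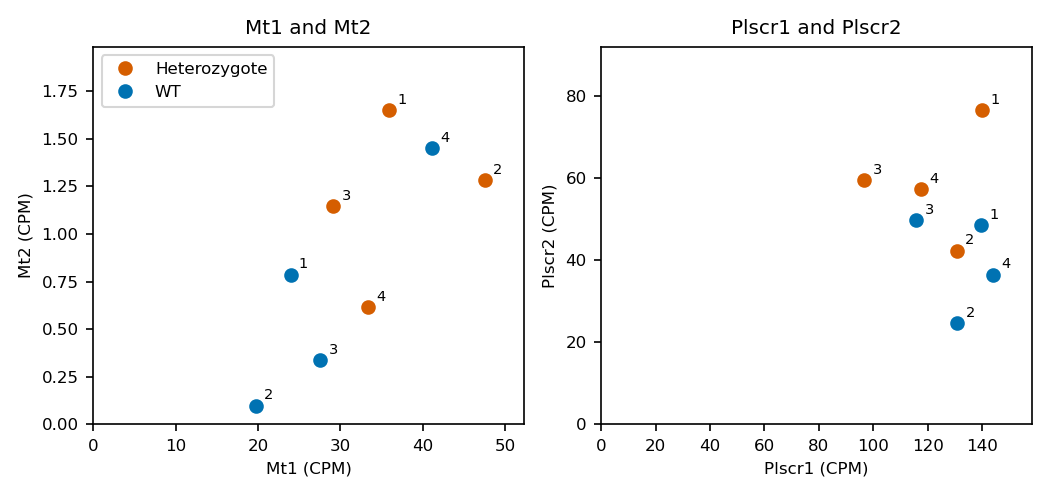
CPM of Mt2 against Mt1 (left) and of Plscr2 against Plscr1 (right) in the 8 libraries, numbered by replicate. Mt1 and Mt2 are both lowest in wild-type replicate 2, and Plscr1 and Plscr2 show no common order.

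The remaining detoxifying and stress genes overlapped between the genotypes. Sult1a1, a sulfotransferase for phenols, measured 12.6, 18.7, 8.24 and 21.9 CPM in heterozygote-labelled replicates 1 to 4, against 19.98, 20.4, 28.2 and 20.6 CPM in the wild-type replicates 1 to 4. Heterozygote-labelled replicates 1 and 3 were the lowest, and wild-type replicate 3 the highest, with a log2 fold change of -0.54 (SE 0.32). Nupr1, a stress-induced chromatin-associated protein, measured 39.5, 31.2, 22.7 and 18.5 CPM in heterozygote-labelled replicates 1 to 4, against 16.1, 21.9, 24.1 and 21.1 CPM in the wild-type replicates 1 to 4. Heterozygote-labelled replicates 1 and 2 were above all other libraries and the other 2 within the wild-type range, with a log2 fold change of 0.43 (SE 0.27).

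Aldh1a1, a retinaldehyde dehydrogenase that marks stem cells, averaged 64.1 ± 19.1 CPM in heterozygote-labelled and 63.9 ± 11.4 CPM in wild-type libraries (SD, n = 4 each), with a log2 fold change of 0.0047 (SE 0.23) whose sign turned under several treatments of the data. Its near-identical relative Aldh1a7 had 1 to 77 counts per library, and fragments that fit both genes could not be assigned to either. Gstm2, a glutathione S-transferase with close copies in a cluster, was 16.7 to 26.8 CPM in heterozygote-labelled and 20.4 to 29.5 CPM in wild-type libraries, with a log2 fold change of -0.07 (SE 0.23) whose sign also turned. Clu, the secreted chaperone clusterin, was 11.9 to 19.2 CPM in heterozygote-labelled and 9.29 to 25.1 CPM in wild-type libraries, with a log2 fold change of -0.26 (SE 0.34). Tgm2, a transglutaminase, was 8.999 to 14.5 CPM in heterozygote-labelled and 11.01 to 13.7 CPM in wild-type libraries, with a log2 fold change of -0.17 (SE 0.26), positive when the trend on GC content and length was removed. Of the 8 members with these roles, metallothioneins included, 4 had a positive and 4 a negative estimate.

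Of the membrane regulators the neighbouring scramblase genes had estimates of opposite sign, neither past the threshold. Plscr1 and Plscr2 encode proteins that bind membranes and are named for moving phospholipids between leaflets, Plscr1 being induced by interferon, and lie side by side on chromosome 9. Plscr1 measured 140, 131, 96.8 and 117 CPM in heterozygote-labelled replicates 1 to 4, against 140, 131, 116 and 144 CPM in the wild-type replicates 1 to 4. The groups overlapped, and the fit gave a log2 fold change of -0.13 (SE 0.14, adjusted p = 0.914 by edgeR). Plscr2 measured 76.6, 42.3, 59.5 and 57.2 CPM in heterozygote-labelled replicates 1 to 4, against 48.5, 24.6, 49.8 and 36.5 CPM in the wild-type replicates 1 to 4. Heterozygote-labelled replicate 1 was the highest and wild-type replicate 2 the lowest, the middle libraries overlapped, and the fit gave a log2 fold change of 0.56 (SE 0.26, adjusted p = 0.850 by edgeR) with an exact permutation p of 0.0857. No relation between the pair passed the threshold across libraries (Pearson r = -0.275, exact permutation p = 0.496, and Spearman rho = -0.286, exact permutation p = 0.501, n = 8). The relatives Plscr3 and Plscr4 averaged 31.0 ± 9.80 CPM and 21.7 ± 4.25 CPM in heterozygote-labelled libraries, against 58.0 ± 24.1 CPM and 39.5 ± 8.75 CPM in wild-type libraries, and Plscr4 did not overlap between the genotypes. Their log2 fold changes were -0.90 (SE 0.34) and -0.86 (SE 0.23), and neither passed. Of 24 interferon-induced genes listed beside Plscr1, 21 were tested, with 12 positive and 9 negative estimates around a median of 0.051 (log2). At an unadjusted p under 0.05 by edgeR 2 were higher under the heterozygote label and 0 lower, where 2.37% and 3.29% of all genes were. None of the 3 tools called any of them.

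Ehd3, an ATPase of endocytic recycling, measured 13.4, 29.9, 23.2 and 22.8 CPM in heterozygote-labelled replicates 1 to 4, against 22.5, 53.8, 23.9 and 38.5 CPM in the wild-type replicates 1 to 4. Wild-type replicates 2 and 4 were the highest libraries and the other 2 wild-type libraries lay among the heterozygote-labelled ones, with a log2 fold change of -0.64 (SE 0.34, adjusted p = 0.850 by edgeR). Exoc6b, a subunit of the exocyst that tethers secretory vesicles, was 7.59 to 11.8 CPM in heterozygote-labelled and 5.59 to 14.03 CPM in wild-type libraries, with a log2 fold change of -0.25 (SE 0.34).

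Other genes described as changing in aged stem cells were read from lists of the same kind, and edgeR, DESeq2 and limma-voom each called 0 genes in them. These lists were written with earlier results of these data known, so their counts by direction are a description and not a test. Of 20 further genes described as raised with age, 17 were tested, 14 with a negative and 3 with a positive log2 fold change, with a median of -0.23. An unadjusted p under 0.05 was reached by 2 of the 17, both lower under the heterozygote label, where 3.29% of all genes were lower and 2.37% higher at that p and 52.0% had a negative estimate. Vwf, von Willebrand factor, averaged 16.6 ± 2.44 CPM in heterozygote-labelled and 30.3 ± 5.48 CPM in wild-type libraries (SD, n = 4 each), a log2 fold change of -0.87 (SE 0.22), and was the only gene of that list whose genotypes did not overlap (1.82% of all genes in that direction), and Runx1t1 differed by -0.84 (SE 0.47) and Slamf1, which encodes the sort marker CD150, by -0.50 (SE 0.26). Of 20 genes described as lowered with age all were tested, 9 with a negative and 11 with a positive log2 fold change, with a median of 0.050 and 3 genes at an unadjusted p under 0.05, 2 of them lower and 1 higher, beside the same shares over all genes. The chromatin organiser Satb1 averaged 4.94 ± 3.13 CPM in heterozygote-labelled and 2.32 ± 1.41 CPM in wild-type libraries, and Flt3 differed by 0.88 (SE 0.35), while the replication genes Mcm5 and Lig1 differed by -0.42 (SE 0.17) and -0.48 (SE 0.19).

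Relatives and pathway partners of the members were counted in the same way, and the 3 tools again called 0 genes. Their counts stand beside the same shares over all genes, 3.29% lower and 2.37% higher at an unadjusted p under 0.05, and 1.82% lower and 1.65% higher without overlap. Of 38 paralogs 18 were tested, 10 negative and 8 positive, with a median log2 fold change of -0.13, and 4 genes at an unadjusted p under 0.05, 3 of them lower and 1 higher. F11r, which encodes the junctional molecule JAM-A, averaged 54.7 ± 17.1 CPM in heterozygote-labelled and 91.8 ± 23.3 CPM in wild-type libraries (SD, n = 4 each), a log2 fold change of -0.74 (SE 0.26), while Jam3 differed by -0.34 (SE 0.42). Zswim6, a relative of Zswim5, averaged 9.51 ± 2.91 CPM in heterozygote-labelled and 1.98 ± 1.64 CPM in wild-type libraries, a log2 fold change of 2.26 (SE 0.75), without overlap. Of 51 partners 35 were tested, 20 negative and 15 positive, with a median of -0.067 and 2 genes at an unadjusted p under 0.05, both lower. Lats1, the Hippo pathway kinase that restrains TAZ, averaged 9.44 ± 2.00 CPM in heterozygote-labelled and 23.4 ± 14.2 CPM in wild-type libraries, a log2 fold change of -1.31 (SE 0.39), without overlap. The BMP signal transducer Smad5 differed by -0.65 (SE 0.28), Stat3, which acts below the oncostatin M receptor, by -0.38 (SE 0.20), and the BMP target Id1 by 0.94 (SE 0.52).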

How the data were processed

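RNA of sorted bone marrow stem cells was sequenced from 8 mice, with groups and replicate numbers taken from the library descriptions. Per the file headers the authors deposited raw fragment counts per gene from featureCounts 1.6.2, reverse-stranded, with both ends mapped and exons of GENCODE M17 summed by gene on GRCm38. The submitters' processing notes name Trim Galore, cutadapt, STAR 2.5.1b and featureCounts 1.5.1. The options in the headers ask for no fragment mapped to several places or shared by several genes, which lowers near-identical paralogs. Symbols came from GENCODE on the same build, matched for 53620 of 53715 identifiers.

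Genes were kept by filterByExpr (13992), scaled by TMM and fitted with edgeR 4.0.16 in R 4.3.3 (robust quasi-likelihood, genotype as the only term). P-values were adjusted over all genes after Benjamini and Hochberg and called under 0.05. Log2 CPM carries a prior count of 2. DESeq2 1.42.0 without independent filtering, limma 3.58.1 (voom with sample quality weights), other scalings, filters, terms and left-out libraries were alternatives. Exact permutation tests were two-sided. No 2 libraries agreed within sampling noise (lowest chi-square per degree of freedom 38.1). PCR copies were not marked, so floors cover counting error only.

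The members and lists were chosen with earlier results of these data known. Values per library are given for the 14 tested members with the smallest unadjusted p, for Mt1, Mt2, Plscr1 and Plscr2 and for the 4 highest in TPM. Up to 4 genes per further list are named by unadjusted p, with near relatives of described members. Partners outside that count were added after their values were seen (Il6st, Mtf1 and Bst1). Some genes that these rules would name are not reported here.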

Additional observations from a re-analysis of the deposited data

Results flagged for a closer look

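Of 50 sets of 4 libraries (25 members in each genotype) 3 had 1 library far from the other 3, where about 1 in 20 sets is flagged by chance. All 3 were wild-type libraries on the high side. Sult1a1 stood at 28.2 CPM in wild-type replicate 3, against 19.98 to 20.57 CPM in the other 3. Gstm2 stood at 29.5 CPM in wild-type replicate 2, against 20.4 to 21.5 CPM. Tm4sf1 stood at 4.76 CPM in wild-type replicate 4, against 3.97 to 3.98 CPM, a gap that is large only beside the narrow range of the other 3 libraries. The cause was not tested.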

How the results depend on the processing

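Under 19 alternatives edgeR, DESeq2 or limma-voom called 0 of the 25 members, and 19 members kept the sign of their log2 fold change throughout. The median of the members ran from -0.24 with library size alone to -0.095 without wild-type replicate 1, and between 14 and 18 members were negative. The median over all genes moved too, being -0.082 and -0.0045 in the same settings, against -0.018 in the main fit. The count over all genes was 29 with DESeq2 and 0 in each other alternative. The sign of Aldh1a1 turned with library size alone (-0.058), limma-voom (-0.017), the replicate block (-0.025) and a sex term (-0.0175), and that of Gstm2 (0.0011) and Tgm2 (0.059) with the trend on GC content and length removed. With 1 library left out Aldh1a1 ran from -0.19 to 0.15, Cd38 from -0.50 to 0.11, Gstm2 from -0.18 to 0.083, Art4 from -0.024 to 0.29 and Enpp5 from -0.032 to 0.16. Fhl1 ran from -1.51 to -0.94, Klrb1c from -3.52 to -1.85, Tm4sf1 from -2.34 to -1.39, Clca3a1 from 0.47 to 0.83, Mt2 from 0.46 to 1.51 and Dsg2 from 2.03 to 3.10, where the lowest adjusted p of Clca3a1 was 0.249. Outside these ranges Klrb1c was -3.74 and Tm4sf1 -3.24 with limma-voom, and Dsg2 was 1.85 with the sex term. Klrb1c was -3.48 with the replicate block. The Pearson correlation of Mt1 with Mt2 no longer passed without the 2 farthest libraries (r = 0.589). The causes were not tested.

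Libraries of the same replicate number deviated together only weakly (correlations 0.0057 to 0.0961), and 2 of 4 wild-type libraries correlated best with their own number, so the numbers were not taken as pairs. With the replicate block 0 members and 0 genes were called, and 17 members were negative with a median of -0.18. Few fragments per library were counted for Dsg2 (1 to 97), Mt2 (2 to 33), Klrb1c (0 to 134) and Tm4sf1 (0 to 108). Their fitted spread between libraries was 1.03, 0.799, 1.02 and 0.846 in that order.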

Other observations

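Some scarce genes related to the members had most of their counts in a few libraries, and were picked after their values were seen. Cysltr1, the relative of Cysltr2, had 58 and 80 counts in heterozygote-labelled replicates 2 and 4 and none in the other 6 libraries. Aldh1a7 had 77 counts in heterozygote-labelled replicate 2, against 50 and 29 in wild-type replicates 4 and 2 and at most 4 in the other 5 libraries. No comparison between genotypes was made for these genes.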
